A study of Mus musculus with 8 samples.

Results

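The regions described here are 261 stretches of autosomal DNA from mouse liver that carried less methylation signal at weaning than before birth on both replicate arrays. They were chosen from 13713 autosomal regions with at least 2 usable probes, so 1.9% were members. The study compared methylation-enriched genomic DNA from livers of C57BL6/J mice at embryonic day 17.5 (E17.5) and postnatal day 21 (P21), with 2 biological replicates of each age. E17.5 livers came from fetuses of timed pregnancies, and P21 livers were taken directly after the mice were separated from their dams. The labels name no sex, no treatment and no genetic change in either group, and do not say whether livers were pooled. Fetal DNA was always in the green dye (Cy3) and weanling DNA in the red dye (Cy5), and both ages of a replicate shared an array. Age and dye therefore cannot be told apart in any value below.

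A region is a run of array probes lying up to 500 bp apart, and its value on an array is the mean over its kept probes of the log2 ratio of P21 over E17.5 signal, centred on the median of the array. A value of -0.4, the limit used to choose the members, is a 1.32-fold lower signal at P21. The choice used the ratios of both replicates, so the ratios below describe the members and no test on them is independent of the choice. Where 2 signals or 2 ratios are given for a region, the first is replicate 1 and the second replicate 2 (n = 2), and their gap is the error of the value. A kept probe had a signal well above background in at least 1 dye on every array and was never marked as an outlier.

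DNA methylation in mammals is found mostly at CG dinucleotides, and methylation at promoters and CpG islands usually goes with a silent gene. MCAM, methylated CpG island amplification followed by microarrays, uses enzymes that cut the site CCCGGG and differ in whether they cut it when methylated, so that fragments between closely spaced methylated sites are amplified and their probes become brighter. Fetal liver is a site of blood formation, and the organ takes on its adult metabolic work around and after birth. A whole liver holds hepatocytes, blood-forming cells, endothelial cells and others, so a change of methylation within a cell type and a change in the mix of cell types cannot be told apart in these data. The arrays measured DNA and hold no transcript level, so the tissue label could not be set against marker expression.

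Of 153 tested regions with a miRNA gene, 5 were members (3.27%, beside 1.9% of all tested regions), and the mature sequences of 4 are given because a mature miRNA acts through the few bases of its seed. The genes were Mir122, Mir149, Mir148a, Mir202 and Mir190a, grouped after their values were seen. The sequences are those of RefSeq, 5′ to 3′, with the seed, bases 2 to 8, in capitals.
miR-148a-3p: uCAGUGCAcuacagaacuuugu
miR-148a-5p: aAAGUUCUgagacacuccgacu
miR-149-3p: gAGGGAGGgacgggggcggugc
miR-149-5p: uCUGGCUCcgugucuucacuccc
miR-190a-3p: aCUAUAUAucaagcauauuccu
miR-190a-5p: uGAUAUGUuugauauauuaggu
miR-202-3p: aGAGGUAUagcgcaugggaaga
miR-202-5p: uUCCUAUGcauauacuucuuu
No 2 of these 8 arms shared a seed.

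The assay reads fragments bounded by CCCGGG, so the promoter windows of 4 member genes that hold this site are shown, each from 250 bases before to 50 bases after the RefSeq transcription start (build GRCm38.p6, 5′ to 3′ on the gene's strand). Capitals mark CCCGGG, which reads the same on both strands. Alas1 and Cyp1a2 are liver genes with different base composition, and Irf2bpl and Cstf2t are among the members with the lowest ratios.
Alas1, chr9:106247905-106248204, minus strand: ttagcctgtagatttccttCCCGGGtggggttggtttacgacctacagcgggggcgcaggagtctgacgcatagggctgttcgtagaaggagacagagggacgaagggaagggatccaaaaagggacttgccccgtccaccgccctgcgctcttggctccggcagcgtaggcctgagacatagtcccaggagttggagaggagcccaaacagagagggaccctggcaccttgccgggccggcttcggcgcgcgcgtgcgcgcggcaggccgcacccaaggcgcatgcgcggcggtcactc
Cyp1a2, chr9:57683606-57683905, minus strand: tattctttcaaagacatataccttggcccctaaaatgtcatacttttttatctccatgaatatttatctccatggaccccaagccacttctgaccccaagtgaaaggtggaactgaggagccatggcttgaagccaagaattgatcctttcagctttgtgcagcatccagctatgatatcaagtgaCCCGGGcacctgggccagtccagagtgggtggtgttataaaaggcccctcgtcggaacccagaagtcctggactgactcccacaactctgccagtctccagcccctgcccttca
Irf2bpl, chr12:86884765-86885064, minus strand: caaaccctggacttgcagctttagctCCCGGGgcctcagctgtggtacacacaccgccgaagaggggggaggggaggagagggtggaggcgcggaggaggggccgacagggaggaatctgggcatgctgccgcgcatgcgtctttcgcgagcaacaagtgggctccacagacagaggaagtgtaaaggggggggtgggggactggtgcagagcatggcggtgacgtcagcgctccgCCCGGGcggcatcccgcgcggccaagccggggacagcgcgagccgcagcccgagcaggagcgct
Cstf2t, chr19:31082591-31082890, plus strand: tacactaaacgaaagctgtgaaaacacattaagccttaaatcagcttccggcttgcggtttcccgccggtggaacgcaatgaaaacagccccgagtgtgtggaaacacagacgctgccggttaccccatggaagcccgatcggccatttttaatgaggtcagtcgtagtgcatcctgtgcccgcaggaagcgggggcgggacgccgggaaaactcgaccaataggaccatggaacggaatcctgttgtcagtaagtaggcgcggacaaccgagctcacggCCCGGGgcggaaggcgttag
The Alas1, Cyp1a2 and Cstf2t windows each held 1 such site and the Irf2bpl window held 2. The Cyp1a2 window had 3 CG dinucleotides, against 27 in the Alas1 window shown and 26 in each of the others. A further RefSeq window of Alas1, not shown, held 0 such sites and 44 CG dinucleotides. No label or file header gives the genome build behind the probe positions, so these windows were not placed against the measured regions. In that RefSeq release, 13.5% of 32851 windows of this length held CCCGGG. A window was found for 207 of the 287 genes named by the members (72.1%), under the 80% needed for a comparison over the set, so a check of sites or base composition over the members is void.

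Across the members the median log2 ratio was -0.70 on the replicate 1 arrays and -0.77 on the replicate 2 arrays, while the medians of all tested regions were 0.002 and -0.002. The mean of both replicates was -1 or lower, at least a 2-fold difference, in 61 members, between -1 and -0.6 in 132 and above -0.6 in 68. On both arrays separately 31 members were at -1 or lower, 0.226% of tested regions. Regions past 0.4 in the other direction on both arrays numbered 86 (0.627%), and 56 regions passed 0.4 in opposite directions. Of the regions past 0.4 in 1 direction on both arrays, 75.2% lay on the lower side. Every member was below 0 on both arrays by the choice, as were 32% of tested regions. When background was corrected by normexp instead of by the scanner software, the counts were 179 lower and 253 higher, so the lower side held 41.4%. With normexp followed by loess they were 122 and 31, and the lower side held 79.7%.

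Both fetal signals lay above both weanling signals in 219 of the 261 members (83.9%), beside 8.62% of tested regions, a contrast that the choice of members had already used. The replicates did not give the same size in every member. The median gap between the replicates' ratios was 0.24, and 147 members (56.3%) had the lower ratio on replicate 2. In 10 members the gap was over 1. Of the 564 regions at -0.4 or lower on replicate 1, 46.3% were members, and of the 952 on replicate 2, 27.4% were. The ratios of all tested regions had an SD of 0.22 on replicate 1 and 0.31 on replicate 2.

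**Figure D1:**
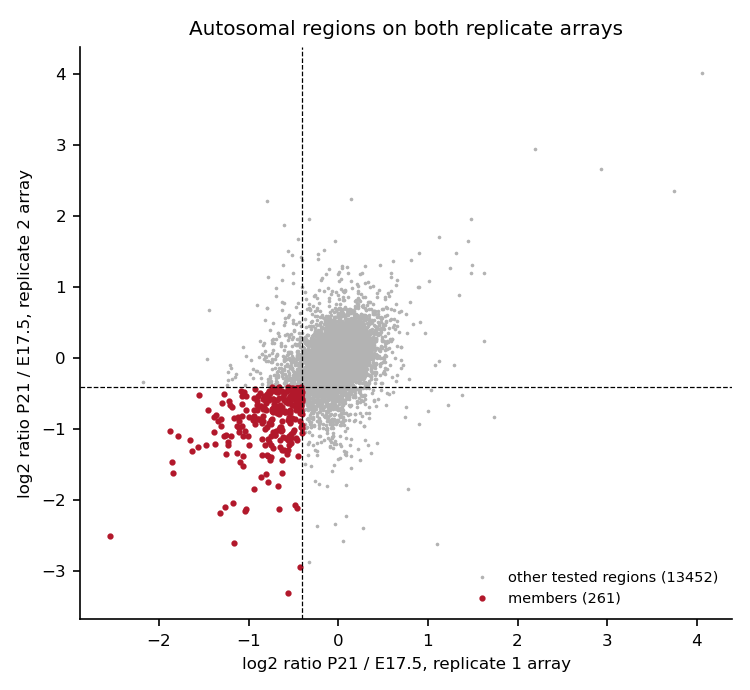
Log2 ratio of P21 over E17.5 on the replicate 1 arrays (horizontal axis) and the replicate 2 arrays (vertical axis), 1 point per tested autosomal region, with dashed lines at -0.4. The 261 members in red reach -2.54 on replicate 1 and -3.31 on replicate 2, and 68 of them have a mean above -0.6.

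The limit of -0.4 fell within a dense group of regions. Just inside it, by the replicate nearer to 0, were Rab38 (-0.403), Lrrn1 (-0.405) and Pdzk1ip1 (-0.405). Just outside it were Ano2 (-0.3996), Cracr2b (-0.399) and Exoc4 (-0.398).

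Genes of mature hepatocyte metabolism gave 8 members among 111 tested regions (7.21%). They were Pbld1, Sult5a1, Alas1, Trf, Hpd, the Cyp1a2 and Cyp1a1 region, Ahcy and Cdo1. The list was drawn up with some of these values known, and without the genes given in earlier results 3 of 104 regions (2.88%) were members. Over the whole list the median ratio was 0.01, beside -0.0002 for all tested regions, with 41 regions below 0 on both arrays and 34 above.

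The Pbld1 region, on chromosome 10 from 63026860 to 63027721, had the lowest mean ratio of the members. Its signals were 56986 and 39619 at E17.5 and 9858 and 7104 at P21 in replicates 1 and 2. Both fetal signals stood far above both weanling signals, by a factor of 5.75 on average, with a ratio of -2.54 and -2.50 on the 2 replicates and all 4 probes below 0. Of these probes, 1 was not well above background at P21 on 1 of the arrays.

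Sult5a1 encodes a sulfotransferase, an enzyme class that conjugates sulfate to small molecules. In its region on chromosome 8 from 122539289 to 122540496, the signals were 6151 and 8865 at E17.5 and 1961 and 4013 at P21. The ages did not overlap, and the ratios were -1.65 and -1.16. Alas1 encodes the enzyme of the first and slowest step of haem synthesis in hepatocytes, and its region lay on chromosome 9 from 106241178 to 106241836. Signals there were 6219 and 4399 at E17.5 and 2681 and 1983 at P21. The lower fetal signal was still above the higher weanling one, and the replicates' ratios of -1.23 and -1.17 were close.

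Trf encodes transferrin, the iron carrier of plasma that hepatocytes secrete. The region on chromosome 9 from 103205478 to 103206361 read 6449 and 5848 at E17.5 and 2624 and 3299 at P21, with no overlap of the ages and ratios of -1.31 and -0.85. Hpd, which acts in tyrosine breakdown, read 10289 and 11451 at E17.5 and 4171 and 7425 at P21. Its replicate 1 ratio of -1.30 was larger in size than the -0.64 of replicate 2.

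The other hepatocyte regions were smaller in size. The region shared by Cyp1a2, a cytochrome P450 of drug metabolism in liver, and the neighbouring Cyp1a1 read 774 and 1091 at E17.5 and 499 and 657 at P21 (ratios -0.65 and -0.76). Ahcy, which removes the by-product of methyl transfer reactions, read 1312 and 1539.7 against 949 and 1107 (ratios -0.46 and -0.49). Cdo1, which oxidises cysteine, read 987 and 961 against 745 and 690.2 (ratios -0.42 and -0.50). In all 3 regions the ages did not overlap, although each difference was under 2-fold. With normexp the mean ratio of Cyp1a2 was -0.28, of Ahcy -0.18 and of Cdo1 -0.18, above the limit used for the members.

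**Figure D2:**
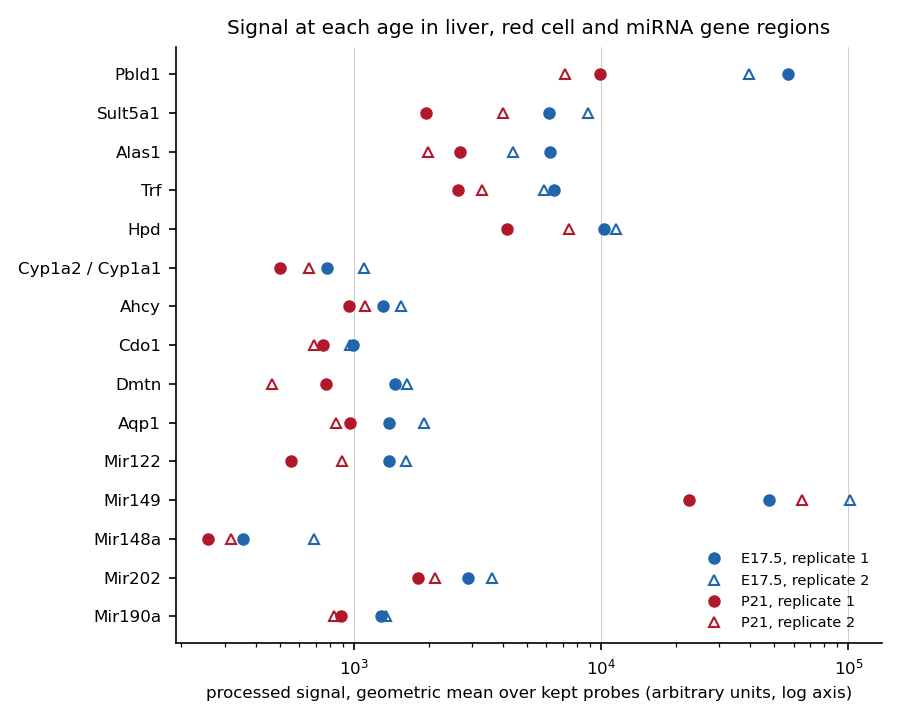
Processed signal in arbitrary units on a log axis, as the geometric mean over the kept probes of a region, in each of the 4 DNA samples for 15 member regions of hepatocyte, red cell and miRNA genes. Fetal points (blue) lie to the right of the weanling points (red) in each region except Mir149, where the P21 signal of replicate 2 (65135) exceeded the E17.5 signal of replicate 1 (47633).

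The following 9 regions were picked singly after their values were seen, with no list or share behind the choice. Lcat, which esterifies cholesterol in plasma, shares a region with Slc12a4 on chromosome 8, where all 5 probes were below 0 and the ratios were -0.54 and -1.10. Slc23a1, a vitamin C transporter, had ratios of -0.62 and -1.29 over 8 probes. Pipox, a peroxisomal oxidase, stood at -1.07 and -0.95, and Oxct1, which activates ketone bodies for use outside the liver, at -1.07 and -0.54.

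The complement protease gene Masp2 had ratios of -0.83 and -0.58, and Serpina11, of the secreted serpin family, -0.47 and -0.50. Lpin1, a phosphatidate phosphatase of fat synthesis, had ratios of -0.75 and -1.10 with all 4 probes below 0. Fcgrt, the neonatal Fc receptor that carries and recycles IgG, read 2832 and 4961 at E17.5 and 1832 and 1634 at P21. Its signals did not overlap between the ages, and its ratios were -0.63 and -1.61. Mertk, a receptor kinase that macrophages use to clear dying cells, had all 6 probes below 0 and ratios of -0.87 and -0.68.

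Genes of haem, iron and red cells gave 4 members of 47 tested regions (8.51%), namely Alas1, Trf, Dmtn and Aqp1. All 4 had been given in earlier results, and without such genes 0 of 42 regions were members. Dmtn encodes an actin-bundling protein of the red cell membrane. The 2 probes of its member region on chromosome 14 read 1463 and 1638 at E17.5 and 771 and 464 at P21, with ratios of -0.94 and -1.84. Another tested region of Dmtn, with 6 kept probes, was not a member and had ratios of 0.19 and -0.13. Aqp1 encodes a water channel of red cells and many other cells. Its region read 1383 and 1918 at E17.5 and 963 and 843 at P21, with no overlap, and 4 of its 7 probes were below 0 on both arrays.

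Other blood and immune cell genes gave 1 member of 79 regions (1.27%), Sigirr, which dampens signals of interleukin 1 and Toll-like receptors. Leaving out genes named by earlier results, Sigirr among them, 0 of 74 regions were members. The Sigirr region on chromosome 7 from 135497180 to 135497473 read 27536 and 59516 at E17.5 and 8904 and 24185 at P21. Both fetal signals were the higher, and the ratios were -1.63 and -1.31. Beyond the lists, and chosen after their values were seen, the cytokine gene Il15 had ratios of -0.85 and -0.92 over 7 probes. Ada, the adenosine deaminase gene, had ratios of -0.80 and -0.61. Ngp, a gene of neutrophil granules, had ratios of -0.71 and -1.08 but rested on 1 of 3 probes below 0 on both arrays. Defining marker genes of the cell types in liver gave no member. On the higher side, at 0.4 or more on both arrays, stood 2 regions of the other blood cell markers and 1 of the endothelial markers, beside 0.627% of tested regions. The median ratio of the other blood cell markers was 0.17, with 6 regions above 0 on both arrays and 0 below. That of the endothelial markers was 0.08, with 4 above and 1 below. The erythroid markers had a median of 0.12, with 3 above and 2 below. The stellate cell and fibroblast markers had a median of -0.07, with 2 above and 5 below. The medians of the hepatocyte and cholangiocyte markers were both -0.01. The part of cell mix in the members' ratios was not tested. The tested regions were 6 for hepatocytes, 6 for the erythroid lineage, 8 for other blood cells, 6 for endothelial cells, 8 for stellate cells and fibroblasts and 4 for cholangiocytes.

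Among the miRNA genes, Mir122 is the source of the predominant miRNA of hepatocytes. Its region on chromosome 18 from 65480887 to 65482163 read 1384 and 1626 at E17.5 and 553 and 893 at P21. The ages did not overlap, all 5 probes were below 0 on both arrays, and the ratios were -1.34 and -0.89. Mir149 lay in one of the brightest member regions, with 47633 and 101395 at E17.5 and 22687 and 65135 at P21. There the ages overlapped between replicates although each replicate was lower at P21, with ratios of -1.07 and -0.65.

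Mir148a read 356 and 685 at E17.5 and 256 and 318 at P21, and the fetal signals stood above the weanling ones with a much larger gap in replicate 2 (ratios -0.47 and -1.12). Mir202 had ratios of -0.66 and -0.78 over 5 probes. Mir190a had ratios of -0.54 and -0.73, where 1 of 4 probes read -1.88 and -2.52 and the others averaged -0.10 and -0.14. With normexp its mean was -0.02, and with normexp followed by loess it was -0.18.

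The lowest ratios among members of at least 3 probes, all below 0, followed Pbld1 at some distance. Crct1, a gene of the epidermal differentiation complex, had ratios of -0.56 and -3.31, so its place rested on replicate 2. Its signals were 642 and 3851 at E17.5 and 436 and 392 at P21, and the replicate 2 fetal signal stood alone. Slc45a1, a sugar transporter, had ratios of -1.17 and -2.60. Klhl7, an adaptor of a cullin ubiquitin ligase, had -0.66 and -2.12, and Utp25, of ribosomal RNA processing, had -1.03 and -2.13. Slc45a1 and Klhl7 each held 2 probes, and Utp25 held 1, that were not well above background at P21 on either array, so their fold differences are partly bounds. In these 4 regions the gap between replicates exceeded 1.

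Replicates were closer in other regions with low ratios. Cstf2t encodes a cleavage factor of messenger RNA 3′ ends, and its region on chromosome 19 from 30334845 to 30335252 read 8689 and 9026 at E17.5 and 2434 and 3335 at P21. The fetal signals nearly coincided and lay well above both weanling signals, with ratios of -1.85 and -1.46. Irf2bpl, a transcriptional regulator gene on chromosome 12, read 1249 and 1496 against 428 and 641, without overlap (ratios -1.56 and -1.25). Vps25, of the endosomal sorting machinery, which had 1 probe not below 0, read 2551 and 2797 against 718 and 928, with ratios of -1.84 and -1.62.

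The mitochondrial coenzyme A carrier gene Slc25a42 had ratios of -1.18 and -2.04. The genes known only by clone names were BC003267 (-1.32 and -2.17), BC030396 (-1.88 and -1.02) and 1700067K01Rik (-1.79 and -1.09). Of these, BC030396 was bright, at 28460.5 and 34820.3 in the fetal samples and 7799 and 17422 in the weanling ones, which did not overlap.

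Within the members, 883 of 1112 kept probes (79.4%) were below 0 on both arrays, beside 32.6% of 54325 probes of all tested regions. All kept probes were below 0 on both arrays in 112 members (42.9%). Among the 111 members with at least 5 kept probes, this held in 28 (25.2%), beside 1.1% of the 4627 tested regions of that size. The choice of members had used the means of these same probe ratios, so both contrasts with the tested regions were built into it. Jmjd8 with Wdr24 and Ogfod2 had 8 of 8 probes below 0. Mical3, an actin-oxidising enzyme gene, Dpep1, a dipeptidase gene, Mertk, Anxa8, an annexin gene, Tgm2, a transglutaminase gene, and Tubgcp3 of the tubulin ring complex had 6 of 6. These regions were picked after their values were seen.

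The lower signal often covered only a stretch of a region. A run of at least 3 neighbouring kept probes at -0.4 or lower on both arrays was present in 90 members (34.5%). Among tested regions the share was 0.795%, a contrast that the choice of members had already used. The longest such run had 7 probes, in the Jmjd8 and Wdr24 region. In 27 members (10.3%) every kept probe was at -0.4 or lower on both arrays. In 87 members the probes at that level on both arrays had no neighbour at that level, and in 2 members no probe was at that level on both arrays.

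Of the 161 members with at least 4 kept probes, 42 (26.1%) had a sharp step. In these, the low probes formed a single run of at least 2 probes at an end of the region, while at least 2 other probes averaged within 0.4 of 0 on each array. The median over these 42 members was -1.34 and -1.56 within the run on replicates 1 and 2 and -0.06 and -0.08 outside it. The definition of a step built in this contrast between the run and the other probes. The description was added after the values were seen, and steps were not counted among all tested regions.

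B4galnt1, a ganglioside synthesis gene, showed the step over the most probes. Its region on chromosome 10 from 126897098 to 126898951 held 10 kept probes, of which 5 neighbours averaged -2.38 and -1.37 and the other 5 averaged -0.03 and 0.05. The mean ratios of the region, -1.20 and -0.66, therefore described neither side. In Trf the 3 neighbouring probes averaged -2.25 and -1.59, and the other 2 averaged 0.09 and 0.26. In Ube2v1, a ubiquitin-conjugating enzyme variant, 2 probes averaged -2.38 and -2.35 and the others -0.07 and -0.09. Irf2bpl, Pld2, a phospholipase gene, Rrm1, the large subunit of ribonucleotide reductase, and Pxn, the focal adhesion protein paxillin, had steps of the same form. Sult5a1 kept 6 of its 7 probes in a run at -1.79 and -1.38.

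**Figure D3:**
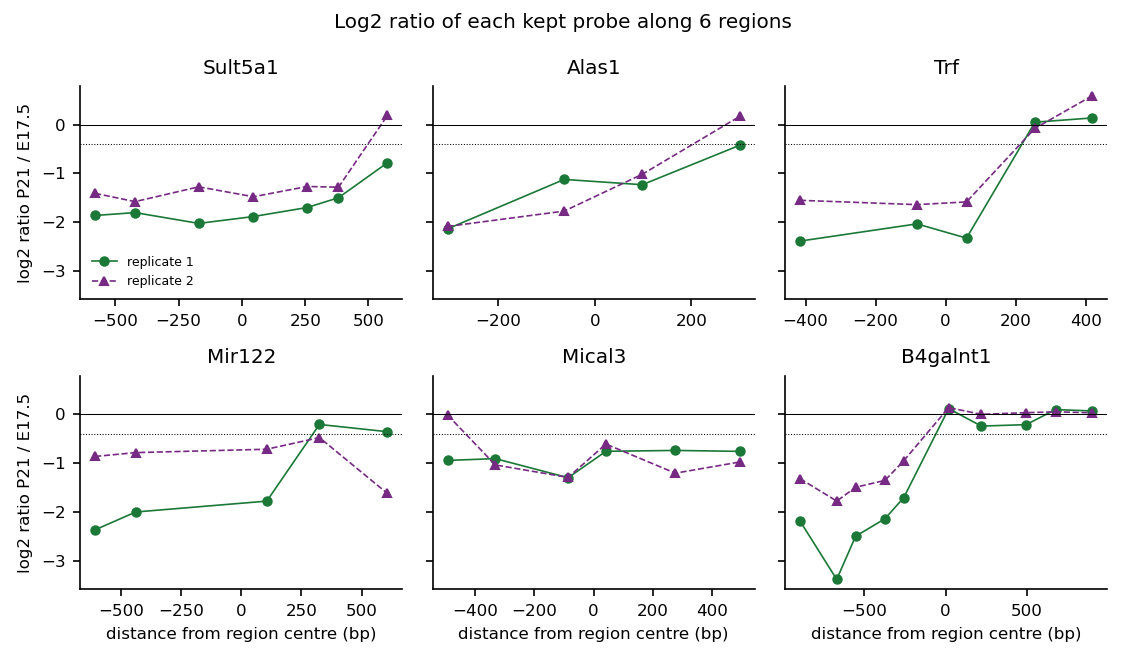
Log2 ratio of P21 over E17.5 for each kept probe, by distance in bp from the centre of its region, in 6 member regions, with circles for replicate 1, triangles for replicate 2, a solid line at 0 and a dotted line at -0.4. Trf and B4galnt1 step from low to near 0 at the same place on both replicates, while in Mical3 all 6 probes lie below 0.

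Members had the same median number of kept probes as all tested regions, 4, and a similar median span, 849 bp beside 866 bp. Of the 1031 tested regions with at least 7 kept probes 28 (2.72%) were members, and among the regions with 2 kept probes 1.53% were. The most kept probes were in B4galnt1 and Gtf2h4, a subunit of the transcription and repair factor TFIIH, with 10 each. Gtf2h4 had ratios of -0.41 and -0.48, with 8 of 10 probes below 0. The region of Cd3eap and Ppp1r13l had ratios of -0.54 and -0.75 over 9 probes, and Pdzk1ip1 -0.41 and -0.79 over 9. In the Cd3eap and Ppp1r13l region 3 neighbouring end probes averaged -1.46 and -2.53, and the others averaged -0.08 and 0.14. In Pdzk1ip1 3 neighbouring end probes averaged -1.18 and -0.82, and the others averaged -0.02 and -0.78.

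Members were brighter than the tested regions as a whole, mostly at E17.5. The geometric mean of the 4 signals had a median of 1165 in members and 725 in all tested regions. This mean holds the fetal signals, and the choice of members took regions where these were the higher. At E17.5 the median signals of replicates 1 and 2 were 1352 and 1722 in members, beside 826 and 635 in all tested regions. At P21 they were 838 and 893 in members, beside 827 and 637. When the tested regions were put into 3 equal classes of this signal, the dimmest class held 63 members (1.38%), the middle class 54 (1.18%) and the brightest 144 (3.15%). Among 10 equal classes, the brightest, with a signal of at least 2110, held 74 members in 1372 regions (5.39%). The brightest of the 3 classes also held 48 of the 86 regions on the higher side. The SD of the ratios of tested regions in the 3 classes was 0.21, 0.18 and 0.27 on replicate 1 and 0.33, 0.27 and 0.32 on replicate 2. Signal level moved with membership, and its part in the members' ratios was not tested.

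**Figure D4:**
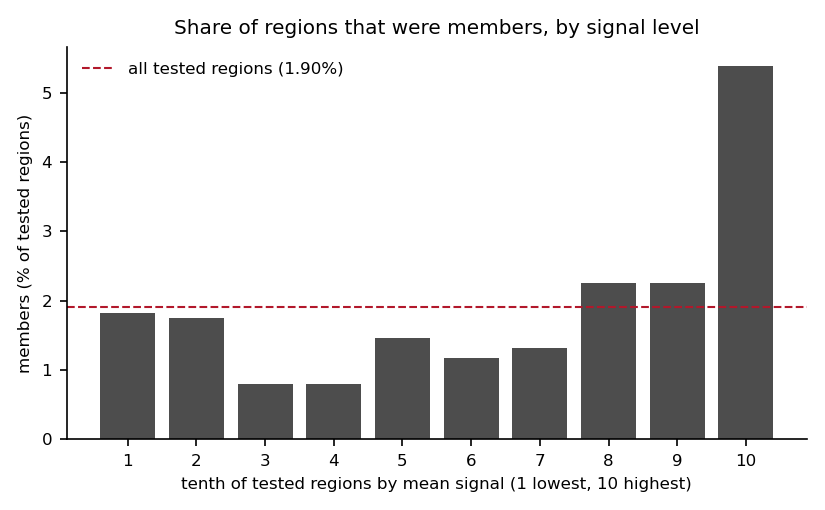
Members as a percentage of the tested autosomal regions in each of 10 equal classes of mean signal, from the dimmest (1) to the brightest (10), with the percentage over all tested regions as a dashed line. The brightest class reached 5.39%, and classes 3 and 4 were the lowest at 0.802% each.

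At the bright end, among members with all probes below 0, the Mical3 region on chromosome 6 from 121513277 to 121514312 read 47456 and 49315 at E17.5 and 25433 and 27548 at P21. The replicates were close at each age, and the ratios were -0.90 and -0.85. Dpep1 read 45776 and 70302 at E17.5 and 28892 and 48215 at P21, so that the P21 signal of replicate 2 exceeded the E17.5 signal of replicate 1. Olfr368, an olfactory receptor gene, read 34136 and 47552 against 16702 and 33029, with ratios of -1.03 and -0.54. Gps1, a COP9 signalosome subunit, had ratios of -0.48 and -0.85 on 2 probes. With normexp its mean ratio was -0.0007, and with normexp followed by loess it was -0.685.

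At the dim end, Ostn read 94.8 and 123 at E17.5 and 72.0 and 64.1 at P21, and Spryd4 read 158 and 128 against 74.2 and 63.7. The zinc finger gene Zkscan3 had ratios of -0.77 and -1.43, and the DNA helicase gene Ddx11 had ratios of -0.51 and -1.04. Ostn, Spryd4 and Zkscan3 each had 1 of 2 probes not well above background at P21 on either array, so these folds are partly bounds. In all members 22 probes in 17 regions had no P21 signal well above background on either array, and 0 members consisted only of such probes. No member held a saturated probe.

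Every autosome held members. Chromosome 8 had the highest share, 23 of 732 tested regions (3.14%), followed by chromosomes 5 (2.73%), 17 (2.68%), 9 (2.63%) and 18 (2.59%). Chromosome 16 had the lowest, 4 of 432 (0.926%), then chromosomes 3 (1.02%) and 1 (1.09%). The array design that carried mostly the lower-numbered chromosomes gave 125 members of 7058 regions (1.77%) and the other design 136 of 6655 (2.04%). The shares were read from few regions per chromosome and were not tested against each other.

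**Figure D5:**
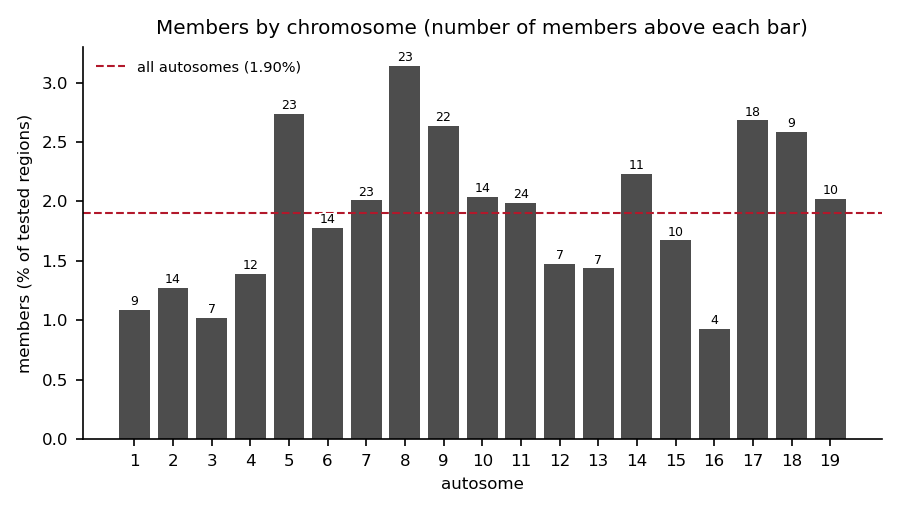
Members as a percentage of tested regions on each autosome, with the number of members above each bar and the percentage over all autosomes as a dashed line. Chromosome 8 reached 3.14% with 23 members and chromosome 16 had 0.926% with 4.

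Members were seldom close together. Another member lay within 100000 bp of 20 members (7.66%), and of non-members 6.62% had a member within that distance. The 20 formed 9 groups. The largest 2 groups had 3 members each, Sult5a1, Dpep1 and Spata33 within 49319 bp on chromosome 8, and Mapre3, the Ost4 and Emilin1 region and Abhd1 within 132681 bp on chromosome 5. These spans held 5 and 8 tested regions, so each also contained regions that were not members.

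The other groups were pairs of regions. They were at Slc38a4, H2bc14 and H2bc15, Jmjd8 and Mettl26, BC018371 and Eme1, Rasal1 and Dtx1, Anpep and Arpin, and BC011248 and Ptcra. In Rasal1, 2 of 3 probes were not well above background at P21 on either array. Rasal1 and Dtx1, regulators of Ras and Notch signalling, lay within 63496 bp on chromosome 5, with ratios of -0.93 and -0.93 in Rasal1 and -0.81 and -0.998 in Dtx1.

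Slc38a4, an imprinted amino acid transporter gene of liver, was the only gene with 2 member regions. The region on chromosome 15 from 97099278 to 97099925 read 886 and 719.6 at E17.5 and 426 and 255 at P21. The other, from 97087669 to 97087960, read 5944 and 5558 at E17.5 and 2482 and 2633 at P21. Neither overlapped between the ages. Another tested region of Slc38a4, from 97123704 to 97124462, was not a member and had ratios of 0.09 and 0.05. Among member genes, 57 had another tested region, and the 52 such regions had a median ratio of -0.03, with 44.2% below 0 on both arrays and 25% above. For 2840 regions of other genes with several regions, these shares were 30.6% and 33.1%.

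Imprinted genes gave 3 members of 62 regions (4.84%), both Slc38a4 regions and Zrsr1, a splicing factor gene, at -0.64 and -0.96. Genes in this list were partly named by earlier results, and without them 0 of 56 regions were members. Germline genes gave 2 of 70 (2.86%), Tdrd1, which acts in small RNA silencing of transposons, at -1.08 and -0.81 with 1 of 3 probes not well above background at P21, and the region of Mlc1 and Mov10l1 at -0.52 and -0.51. Without genes named by earlier results, germline genes gave 1 of 68 (1.47%). Homeobox and patterning factors gave 3 of 189 (1.59%), Pax6 at -0.46 and -1.15, Bcl11b at -0.70 and -0.47 and Hoxa9 at -0.68 and -0.48. Leaving out genes named by earlier results, Hoxa9 among them, the count for this list was 2 of 178 (1.12%).

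Growth factor, Wnt, TGF-beta and Notch signalling genes gave 2 of 174 (1.15%). One was Ihh, a Hedgehog ligand, whose region read 2075 and 3647 at E17.5 and 1203 and 1410.5 at P21 (ratios -0.78 and -1.38). The other was Gli1, a transcription factor gene induced by Hedgehog signalling, at -0.47 and -0.63. DNA methylation and chromatin genes gave 1 of 67 (1.49%), the region shared by Nfkbib and the deacetylase gene Sirt2 at -0.52 and -0.42.

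Solute carriers gave 13 of 331 regions (3.93%). Besides Slc45a1, Slc25a42, both Slc38a4 regions, Slc23a1 and Slc12a4, they were Slc41a1, Slc35f1, Slc36a2, Slc45a3, Slc31a1, Slc8a3 and Slc7a10. Slc41a1, a magnesium transporter gene, read 8959.8 and 11336 at E17.5 and 4997 and 6212 at P21, with ratios of -0.84 and -0.88. Slc31a1, the copper importer gene, stood at -0.50 and -0.50. There 1 of 4 probes read -2.18 and -1.33, and the others averaged 0.05 and -0.22. Of the 331 regions 106 were below 0 on both arrays and 100 above, and the median was -0.004. Without Slc38a4, which earlier results named, 11 of 328 regions (3.35%) were members. The ABC and P-type ATPase pumps gave 0 of 110, and ion channels gave 3 of 197 (1.52%), Kcnd3, Hcn2 and Clcn7.

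Histone genes gave 3 of 40 regions (7.5%), and 3 of 27 (11.1%) when only names of histone form in the files were counted, a choice made after values were seen. H2bc14 had ratios of -0.86 and -1.67, H2bc15 -0.56 and -0.57, and the region of H2ac6 and H2bc4 -0.78 and -1.15. Histone genes are near-identical copies of each other, so their probes may read more than 1 gene. With normexp followed by loess the mean ratios were above the limit in all 3 regions. They were -0.22 for H2bc14, -0.19 for the H2ac6 and H2bc4 region and -0.075 for H2bc15. With normexp alone they were -0.53, -0.54 and -0.399 in the same order. The next 4 genes were picked singly after their values were seen, with no list behind them. Rif1, which sets replication timing, stood at -1.26 and -2.10 on 2 probes. The centromeric histone gene Cenpa stood at -0.67 and -1.79, Rrm1 at -1.11 and -0.83, and the replicative helicase gene Mcm2 at -0.58 and -0.47.

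Genes of ubiquitin ligases, other ubiquitin enzymes and tripartite motif proteins, listed by name pattern, gave 9 of 293 (3.07%). The lowest were Klhl7, Ube2v1 at -1.22 on both arrays, Ube2j2 at -0.998 and -0.83 and Usp28 at -0.65 and -1.15. Ribosomal protein genes gave 4 of 183 (2.19%), with Rpl26 lowest at -1.10 and -1.46. Cytochromes P450, sulfotransferases and glucuronosyltransferases gave 2 of 84 (2.38%), the Sult5a1 and Cyp1a2 regions already described, and 1 of 83 (1.2%) without Sult5a1, which earlier results named. G protein-coupled receptors gave 7 of 441 (1.59%), of which 6 were olfactory receptors, from 255 regions of that family (2.35%).

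Protein kinases and phosphatases gave 4 of 304 (1.32%) and zinc finger proteins 3 of 287 (1.05%). Among the kinases was Prkaa2, a catalytic subunit of the energy sensor AMPK, which read 2262 and 3564 at E17.5 and 1527 and 1609.5 at P21 without overlap. Krueppel-like and Sp factors gave 0 of 20, cadherins and protocadherins 0 of 56, collagens, laminins and matrix enzymes 0 of 116, and keratins and other intermediate filaments 0 of 60. The counts describe lists chosen with earlier results known, and nothing is called particular to a list from them.

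Across all 13713 regions limma, with Benjamini-Hochberg adjustment, called 0 regions lower and 1 region higher at an adjusted p under 0.05 (0.00729% in all), and 983 regions (7.17%) were lower at an unadjusted p under 0.05. The members' adjusted p-values from limma lay between 0.0818, for Pbld1, and 0.443. With 2 ratios per region an exact two-sided test of a single region cannot give a p below 0.5.

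The size of the members' ratios depended on the background correction. With normexp the median mean ratio of the 261 members was -0.38 in place of -0.77, and 82 members were still at -0.4 or lower on both arrays, while 231 were below 0 on both. By signal class, 30 of the 63 dim members (47.6%), 15 of the 54 middle ones (27.8%) and 37 of the 144 bright ones (25.7%) were among these 82. Under all 4 other scalings tried and with no filter on dim probes, 52 members (19.9%) stayed at -0.4 or lower on both arrays. Pbld1, Vps25, Cstf2t, Sult5a1, Alas1, Hpd, Dmtn, Sigirr, Ihh, Il15, Mertk and Mir202 were among the 52, and Trf, Mir122 and Irf2bpl were not.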

How the data were processed

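Methylation-enriched DNA of 8 samples was read on 4 two-colour arrays, 2 replicates on each of 2 designs. Scanner images were turned into intensity values by the authors with the software Agilent Feature Extraction, version 9.1.1.1 for 1 array and 9.1.3.1 for the others, per the file headers. The submitters' processing notes name 9.1.1.1. The processed intensity values deposited are background-subtracted and dye-normalized by a linear factor per channel, per the file headers, and dim spots hold a substitute value. The deposited log10 ratio was read to check the direction, red over green. It lay within 0.001 of the ratio of processed intensities in 70.3% to 77.8% of probes. The authors' deposited series table holds each sample's own channel as linear, uncentred intensity values: every value lay within 0.6% of the scanner value, with column medians between 267 and 460. No source used here names the genome build of the probes.

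The log2 ratio, P21 over E17.5, was set to a median of 0 on each array, without loess or quantile normalization. Controls, outlier spots and probes dim in both channels of any array were left out. The share of probes well above background was 67.0% to 75.9% at E17.5 and 71.9% to 77.1% at P21. Regions join probes up to 500 bp apart and need 2 kept probes. The 2 arrays per region limit the precision. Both ages of a replicate share an array, which pairs them by construction: over 13713 regions, the channels' deviations from the mean of their age had a correlation of 0.750. Whether replicates came from single or pooled animals is not given, so a p measures only the spread between these samples. Mean ratios were tested against 0 with limma (version 3.58.1, R version 4.3.3), a step tested on simulated data. The simulated shifts were larger in size than the mean ratio of any member, so smaller shifts were not covered. Tables were made with pandas 2.3.3, numpy 2.4.6 and Python 3.11.15 and data.table (version 1.17.8), figures with matplotlib 3.10.9.

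Gene names are those of the files, updated through the RefSeq table (GRCm38.p6) where the chromosome matched. The members and the 23 gene lists were chosen with earlier results of these data known. The result of 1 list is not reported here. The naming rule took the 12 lowest members of at least 3 probes, all below 0; the 8 brightest and 4 dimmest; the 4 with most probes; genes with 2 member regions; up to 4 members of each list; 3 regions on each side of the limit; and genes given earlier. The miRNA genes, and others marked in the text, were chosen after their values were seen. Alternatives changed the filter, background correction, dye normalization, centring, gap, joining, summary, probe minimum, threshold, source of values, replicates and variance prior.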

Additional observations from a re-analysis of the deposited data

How the results depend on the processing

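The count of 261 regions at -0.4 or lower on both arrays stayed within 1.5 times with loess, no centring, no filter on dim probes, both channels required, normexp, other gaps and joining, the median, 3 probes, the deposited series table and a limit of -0.5, between 179 and 370. It was 122 with normexp and loess, 442 at a limit of -0.3 and 31 at -1, and between 564 and 952 with 1 replicate left out. The same count does not mean the same regions: 82 members were kept with normexp, 120 with normexp and loess, 164 with no filter, 174 with the median and 241 with loess. The share on the lower side was 75.2%, with 41.4% under normexp and 79.7% under normexp and loess. It was 66.1% with no filter and 74.8% with loess. limma called 1742 regions lower with normexp (1579 higher) and 5 with normexp and loess (3 higher), and 0 lower in the other fits. Without the pairing of the ages on an array, as 4 unpaired channels with no replicate block, limma called 0 lower, with a lowest adjusted p of 0.391 and 142 regions lower at an unadjusted p under 0.05. Signs turned in 2 named regions: the mean ratio of the region of Mrpl38 and Trim65 was 0.013 with a gap of 200 bp, and that of Zwint was 0.059 with both channels required. Among 132 named regions, 101 moved by more than the spread between replicates with normexp, 81 with normexp and loess and 13 with loess. Causes were not tested. Probes dim at P21 on both arrays limit 17 members, and 2 arrays limit all. Other members, such as Pbld1, Rif1 and Irf2bpl, held 1 probe that was dim at P21 on 1 of the arrays.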
